A study of Homo sapiens with 4 samples.

Results

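Genes of the human LINC series were examined in 2 melanoma cell lines. LINC is the stem that the gene nomenclature gives to long intergenic non-coding RNAs with no better name. The members were the genes whose platform symbol begins with LINC and a digit and that had a probe set naming 1 gene. Each was represented by its probe set with the highest mean log2 intensity, and it was kept where that mean over the 4 arrays was at least 5 (intensity 32). Of 840 such genes on the array, with 1084 probe sets, 221 (26.3%) met the minimum and 619 did not, against 13794 of 19775 genes of every kind (69.8%). The level therefore chose the members and is described without a test. Just inside the minimum were LINC02241 and LINC03125, each at a mean log2 level of 5.02, and just outside it were LINC02708 at 4.99, LINC01159 at 4.98 and LINC00334 at 4.96.

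Long intergenic non-coding RNAs are transcribed by RNA polymerase II, are capped, spliced and polyadenylated like messenger RNAs, and carry no long reading frame. Some act on chromatin or on genes nearby, others bind proteins or microRNAs, and for most no function is known. They are known for expression that is low and restricted to few cell types, and several are used as markers of tumour type.

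The cells were A375 and SK-MEL-28, established human melanoma lines, each transfected with a negative control siRNA or with an siRNA that targets the ZIC-family transcription factor gene ZIC5, and collected after 48 h. The design asks which transcripts differ when ZIC5 is targeted, and the line comparison is possible because both lines received both siRNAs. There was 1 HG-U133 Plus 2.0 array per group with no replicate, and differences within a line carry neither an error nor a p-value. The ZIC5 probe set read 16.8 and 14.1 in A375 (control, then ZIC5 siRNA) and 21.4 and 15.5 in SK-MEL-28, below the minimum throughout, and so gave no check of the siRNA labels.

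Depth cannot be given for arrays, and the number of arrays limits the precision. Of 10 melanocyte lineage markers, 10 read at least 32 on both SK-MEL-28 arrays and 7 on both A375 arrays, and their summed intensity was 47530 to 52457 in SK-MEL-28 and 3794 to 3956 in A375. In A375 the pigment cell antigen MLANA read 13.9 and 17.0 and the melanosomal enzyme TYRP1 7.51 and 8.10, so these defining markers were near the bottom of the scale there. Of 6 keratinocyte or epithelial markers, 4 reached 32 on both A375 arrays and 5 on both SK-MEL-28 arrays, with a summed intensity of 4691 to 4720 in A375 and 630.2 to 643 in SK-MEL-28, most of it from the keratin gene KRT18. Of the defining epithelial antigens, EPCAM read 12.7 to 13.8 on the 4 arrays, and the cadherin CDH1 read 6.04 and 5.64 in A375 against 59.2 and 56.0 in SK-MEL-28. Of 5 fibroblast markers, 2 and 3 reached 32, with sums of 245 to 432 and 755 to 1117. The leukocyte antigen PTPRC read 5.44 to 7.70 and the endothelial cadherin CDH5 7.75 to 10.3 over the 4 arrays. A value averages over the cells of a culture, so fewer cells with a transcript and less of it per cell cannot be told apart.

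Not every member is intergenic, or still a LINC gene, in the current RefSeq annotation. Of the 221 members, 218 could be placed by gene identifier in the RefSeq order of assembly GRCh38.p14, and 18 of these overlapped a protein-coding gene. The gene that the platform calls LINC01296 is now DUXAP9, a transcribed pseudogene, and LINC01293 is now a synonym of LINC01291. None of the members held a microRNA hairpin listed by RefSeq. Probe sets ending in _s_at, _x_at or _a_at, which can share sequence with other transcripts, represented 14, 11 and 11 members, and 185 had no such suffix.

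**Figure D1:**
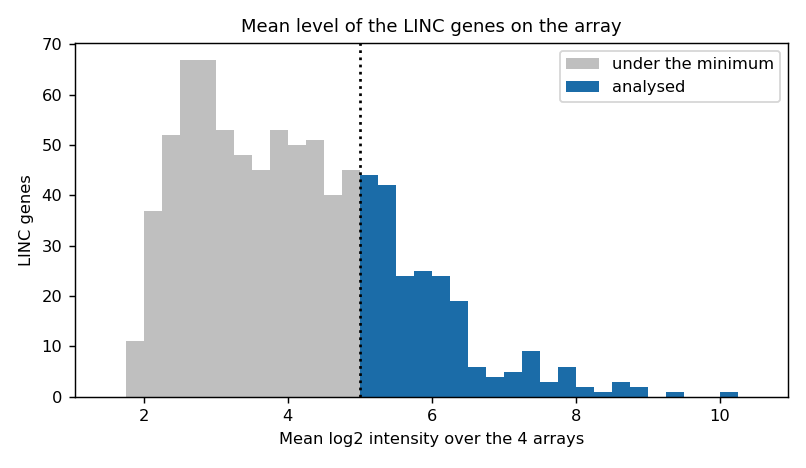
Mean log2 intensity over the 4 arrays (x axis) of the 840 LINC genes on the array, as the number of genes per bin of the y axis. The dotted line is the minimum of 5, with 619 genes below it in grey and 221 analysed genes above it in blue.

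Most LINC genes differed little between the lines, and a few differed strongly. LINC01419 and LINC01029 were strongly expressed in A375 and read 12.2 or less in SK-MEL-28, while LINC00518 and LINC00520 were strongly expressed in SK-MEL-28 and read 159 or less in A375. Under control siRNA, 25 members (11.3%) exceeded 2-fold in favour of A375 and 19 (8.60%) in favour of SK-MEL-28, against 11% and 11.2% of all 13794 genes analysed. The median difference was -0.04 on the log2 scale, beside 0.03 over all genes. The difference was under 0.3 on the log2 scale in 122 of 221 members. The SD over genes was nevertheless 1.40, beside 1.18 over all genes, while the median absolute difference was smaller, 0.27 beside 0.44. An SD gives most weight to the largest differences, here 9.14 for LINC01419 and -7.24 for LINC00520. A member that reached the minimum through 1 line had to differ, so the SD is no evidence on the members as a group.

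An additive limma model of line and siRNA treats the siRNA arrays of a line as its replicates and leaves 1 residual degree of freedom per gene. At a Benjamini-Hochberg adjusted p under 0.05 over all genes, it called 23 members higher in A375 (10.4%) and 19 lower (8.60%). Over all genes it called 14.2% higher and 13.4% lower. A member that reached the level minimum through 1 line alone had to differ between the lines, so these counts are no evidence on the members as a group. Among the 164 members at 32 or more on all 4 arrays, 11 were called higher and 8 lower. Both are smaller shares than the 12.6% and 12.4% among all 12474 such genes, a difference that was not tested.

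Members read at 32 or more on both arrays of A375 and under 32 on both of SK-MEL-28 numbered 16 (7.24%, beside 2.28% of all genes). In the other direction there were 12 (5.43%, beside 1.70%). These members were picked for the difference and reached the minimum through their higher line, so the counts are a description. The limma p-values given below for members picked for their line difference are likewise descriptions, since the same arrays chose them. Most had low levels. Of the 28 such members, 24 lay in the lowest band of mean log2 level, from 5 to 6, where 17.8% of the 135 members and 13.9% of all 2986 genes were of this kind. From 6 to 7 the share was 5.66% of 53 members and 4.90% of all genes.

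For LINC01419, a transcript described in hepatocellular carcinoma, the A375 intensity was 2619 (control siRNA) and 905 (ZIC5 siRNA), while in SK-MEL-28 it was 4.64 and 4.15. Both A375 arrays stand far above both SK-MEL-28 arrays. The line effect in limma was 8.46 ± 0.39 on the log2 scale (SE, adjusted p = 0.00294). Since values this low have no reliable size, a floor of 32 was also applied, and the difference under control siRNA was then 6.35, or at least 81.8-fold.

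LINC01029 read 2851 and 2107 for A375 and 12.2 and 10.5 for SK-MEL-28, with no overlap (limma line effect 7.76 ± 0.18, SE, adjusted p = 0.00225, and 6.48 under control siRNA with the floor, or at least 89.1-fold). LINC02915 read 179 and 87.1 for A375 and 11.2 and 7.34 for SK-MEL-28. LINC02882 read 113 and 130 against 13.6 and 15.7. In both genes the A375 arrays lie above the SK-MEL-28 arrays, by at least 5.58-fold and at least 3.54-fold under control siRNA with the floor.

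LINC00460, reported to promote growth and invasion in several carcinomas, read 222 and 287 for A375 and 28.1 and 24.0 for SK-MEL-28 (limma line effect 3.28 ± 0.22, SE, adjusted p = 0.00538). A further LINC00460 probe set at the minimum had a line difference of 2.26 beside 2.98 for the chosen one. LINC00960 was measured above 32 in every array, at 539 and 600 for A375 and 110 and 111 for SK-MEL-28. Its 3 probe sets gave line differences of 1.91, 2.30 and 2.84. For both genes the chosen probe set put the arrays of a line close together and the lines apart. At the further LINC00460 probe set the lines also lay apart, but the A375 arrays were past 2-fold from each other. There the log2 difference of ZIC5 siRNA from control was 1.20 (A375) and 0.53 (SK-MEL-28), beside 0.37 and -0.23 at the chosen one.

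Of the others among the 10 members most above in A375, LINC02241 read 58.3 and 142 for A375 and 11.4 and 11.7 for SK-MEL-28, and its line difference of 2.35 under control siRNA became 0.87 with the floor. LINC01224 read 134 and 50.3 against 27.5 and 31.4, and LINC00312, first described in nasopharyngeal carcinoma, read 162 and 72.0 against 38.2 and 47.0. Neither of these passed the line test (limma adjusted p = 0.0796 and 0.0845), although their A375 arrays lay above their SK-MEL-28 arrays. LINC00997 read 82.7 and 73.4 against 18.4 and 25.4 and did pass (limma adjusted p = 0.0133).

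Of the members higher in SK-MEL-28, LINC00518 is used with PRAME in a skin test for melanoma. In SK-MEL-28 it read 1159.9 (control) and 523 (ZIC5 siRNA), whereas in A375 it read 10.6 and 4.79. The limma line effect was -6.77 ± 0.16 on the log2 scale (SE, adjusted p = 0.00225), and with the floor the control siRNA difference was at least 36.2-fold. LINC00520, a transcript linked to SRC and STAT3 signalling, read 4472 and 3237 in SK-MEL-28 and 29.5 and 159 in A375. The limma line effect was -5.80 ± 0.76 (SE, adjusted p = 0.0163). Its probe set ends in _s_at. Its siRNA differences in the lines, 2.43 and -0.47, were unequal, which the model counts as error and which widens its SE.

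LINC02946 read 285 and 178 in SK-MEL-28 and 10.1 and 10.3 in A375. LINC02099 read 168 and 184 against 13.3 and 10.7, and a further LINC02099 probe set gave a log2 line difference of -6.17 beside -3.66. LINC02525 read 122 and 105 against 13.2 and 13.7. All of these genes lay under 32 on both A375 arrays, so they reached the minimum through SK-MEL-28. They passed the line test (limma adjusted p = 0.00332, 0.00297 and 0.0033), but they were picked for the line difference, so these p-values are a description.

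The next members had smaller line differences. LINC00622 read 394 and 428 for A375 and 1219.9 and 1009.5 for SK-MEL-28 (limma line effect -1.43 ± 0.19, SE, adjusted p = 0.0164). LINC00589 read 29.6 and 27.6 against 111 and 142, and LINC01010 read 37.1 and 47.8 against 128 and 85.0. LINC00698 read 30.0 and 11.0 against 157 and 217, and LINC03002 read 53.7 and 62.9 against 147 and 94.4. In each of these the SK-MEL-28 arrays exceed the A375 arrays, and LINC03002 missed the threshold (limma adjusted p = 0.0664). The summed melanocyte markers given above were higher in the same line as these genes. Not every marker in that sum was, since CSPG4 read 678 and 576 for A375 and 682 and 507 for SK-MEL-28. The summed epithelial markers were higher in A375 through KRT18, while CDH1 was higher in SK-MEL-28. The part of these markers in the results was not tested.

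**Figure D2:**
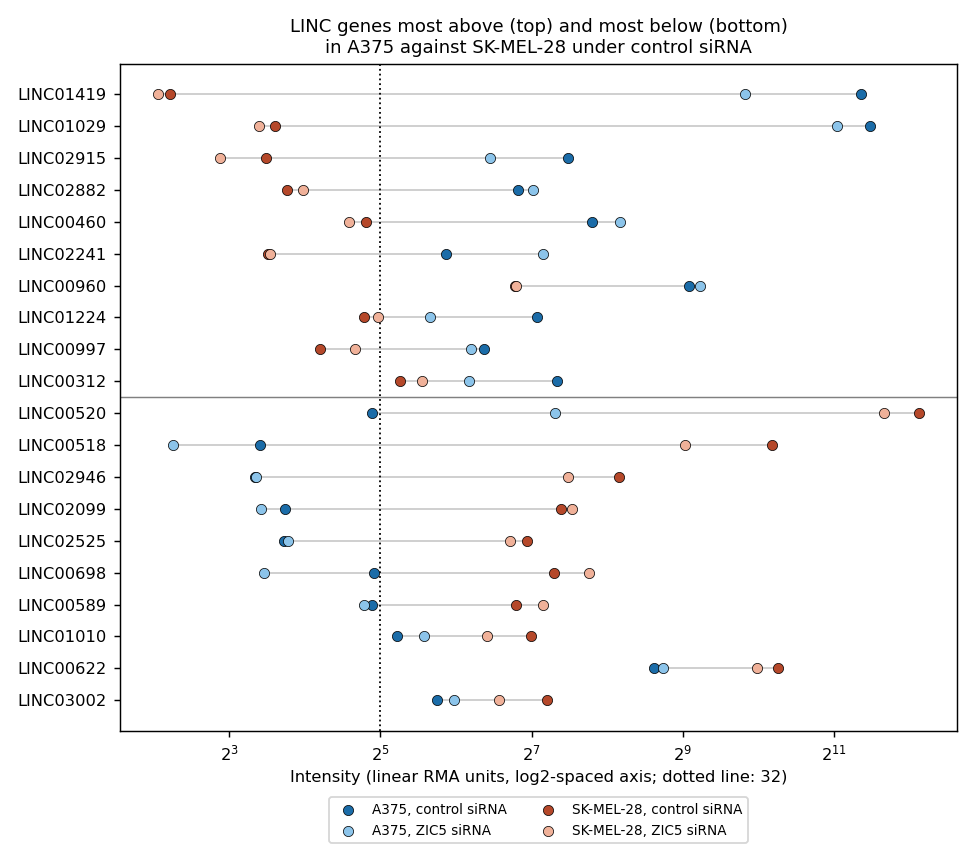
Intensity on the 4 arrays (x axis, linear RMA units on a log2-spaced axis, dotted line at 32) of the 10 LINC genes most above in A375 against SK-MEL-28 under control siRNA (upper rows, LINC01419 first) and the 10 most below (lower rows, LINC00520 first). One point is one array, blue for A375 and red for SK-MEL-28, dark for control siRNA and light for ZIC5 siRNA, and in every row both arrays of one line lie on the same side of both arrays of the other.

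Several LINC genes with large line differences lie beside a coding gene with a difference in the same direction. Nearest here means the closest coding gene that did not overlap the member, so an overlapped coding gene was never counted as the neighbour. Of the members 2-fold lower in A375, 15 had a nearest coding gene at the minimum, and 12 of those neighbours were also lower, 8 of them at least 2-fold. Of 1041 coding genes 2-fold lower in A375, 66.3% had a lower nearest coding gene, 26.4% at least 2-fold. Of the members 2-fold higher in A375, 15 had such a neighbour, and 10 were also higher, 6 of them at least 2-fold, beside 70.7% and 24.6% of 996 coding genes. The difference from coding genes was not tested. LINC00518 (-6.78) lies next to TFAP2A (-3.43), the AP-2 alpha factor of neural crest and melanocyte development, which read 238 and 408 for A375 and 2566 and 2321 for SK-MEL-28. LINC00460 (2.98) lies next to EFNB2 (3.09), an ephrin ligand, and LINC02525 (-3.21) next to the tubulin gene TUBB2A (-2.83). LINC01010 (-1.78) and LINC03002 (-1.46) share the neighbour SGK1 (-3.11), a serum-induced kinase, so they are not separate cases. LINC00520 (-7.24) differed from its neighbour KTN1 (0.42), and LINC02099 (-3.66) from SARAF (-0.23). SARAF is also the neighbour of LINC00589 (-1.90). The counts of lower neighbours above hold SGK1 and SARAF once for each member, so they exceed the number of distinct neighbours.

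Over the 152 members whose nearest coding gene was at the minimum, with 145 distinct neighbours, Pearson's r of the line difference was 0.33 and Spearman's rho 0.25. For 9165 coding genes and their nearest coding neighbours r was 0.22. The signs were equal in 55.9% of the LINC pairs and 60.3% of the coding pairs. These are descriptions across genes of the same 4 arrays, and genes are not independent replicates. For the siRNA differences r came to 0.08 (A375) and -0.14 (SK-MEL-28), beside 0.08 and 0.03 for coding pairs.

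**Figure D3:**
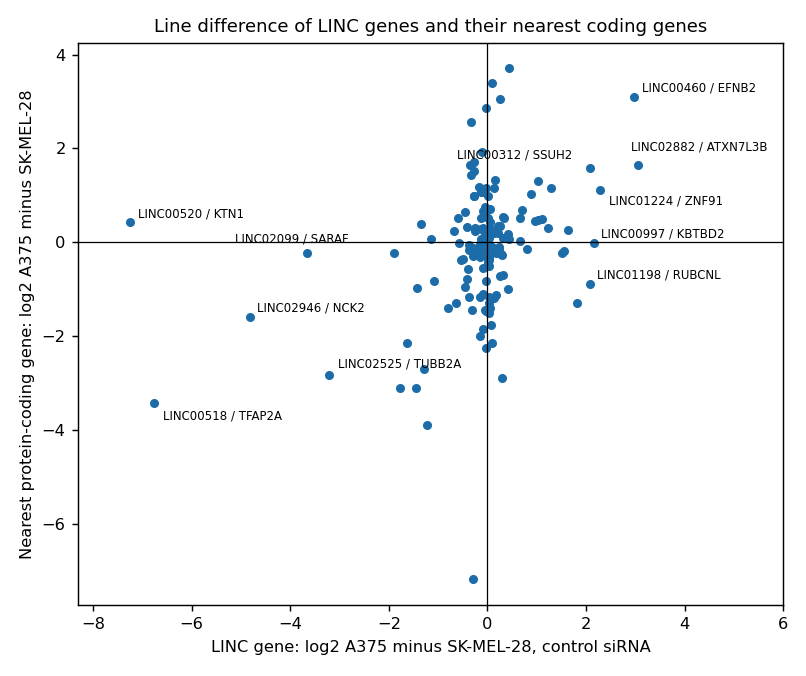
Log2 difference between A375 and SK-MEL-28 under control siRNA for 152 LINC genes (x axis) and for the nearest protein-coding gene that does not overlap each (y axis), one point per pair. Names mark LINC genes with a difference of at least 2 on the log2 scale. LINC00518 with TFAP2A lies at the lower left and LINC00460 with EFNB2 at the upper right, while most pairs are near 0 on the x axis.

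The siRNA differences of the LINC genes were mostly under 2-fold. In A375, 8 members (3.62%) were past 2-fold to higher values with ZIC5 siRNA and 14 (6.33%) to lower values, against 3.89% and 5.05% of all genes. In SK-MEL-28, 1 member (0.452%) was past 2-fold to a higher value and 4 (1.81%) to lower values, against 0.776% and 2.12%. Both pairs of shares are near those of all genes. For A375 the median difference was -0.01, the same as over all genes, and for SK-MEL-28 it was -0.06, beside 0.00 over all genes. Of the 164 members at 32 or more on every array, 6 were 2-fold higher and 5 lower for A375 and 0 and 1 for SK-MEL-28. Among all 12474 such genes the shares were 3.46% and 4.35% for A375, then 0.722% and 1.69% for SK-MEL-28.

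The sign agreed between lines in 125 of 221 members (56.6%) and in 8831 of all 13794 genes, with 76 members lower in both and 49 higher in both, beside 4487 and 4344 of all genes. Across members r between the lines was 0.21, and across all genes 0.44, both as descriptions. The limma siRNA effect over both lines called 0 members and 0% of all genes, with a lowest adjusted p of 0.268 in each case. At an unadjusted limma p under 0.05 there were 19 members (8.60%), 15 lower and 4 higher, and 1824 of all genes (13.2%), 1009 lower and 815 higher. None of the siRNA differences that follow therefore passed a test.

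At least 2-fold lower in both lines were 3 members (1.36%), LINC00339, LINC00472 and LINC00518, against 1.15% of all genes. LINC00339, which lies near the small GTPase gene CDC42 and has been reported to regulate it, read 503 (control) and 136 (ZIC5 siRNA) for A375, then 376 and 168 for SK-MEL-28. Both ZIC5 siRNA arrays lie below both control arrays. The log2 differences were -1.89 and -1.17, with a mean in limma of -1.53 ± 0.25 (SE, adjusted p = 0.270). It was the only one of the 3 with every value above 32. Its nearest coding gene, the pancreatic elastase gene CELA3A, differed by -0.73 and 0.06, and CDC42, on the other side, by 0.12 and -0.08.

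LINC00472, reported as a tumour suppressor transcript in breast cancer, read 80.5 and 21.2 for A375 and 39.3 and 18.2 for SK-MEL-28. Its differences of -1.92 and -1.11 became -1.33 and -0.30 with the floor, since both ZIC5 siRNA arrays were under 32. OGFRL1, its nearest coding gene, showed -1.17 for A375 and 0.00 for SK-MEL-28. LINC00518, with the values above, differed by -1.14 and -1.15. In A375 it was under 32 on both arrays, so that only the SK-MEL-28 difference rests on measured levels.

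RefSeq promoter sequences of GRCh38.p14, from 250 bases before to 50 after the start site, are shown for the members that were 2-fold lower in both lines or that differed in opposite directions, where the table holds them. Capitals mark matches, on either strand, to the motifs searched. They were GGGCGG for the GC box that SP1-type factors bind. They were CCAAT for the box of that name, a common element upstream of start sites. For AP-1, the FOS and JUN dimer, the letters were TGANTCA. For a ZIC-type site they were CAGCAGG. The table held 163 members. LINC00339 has 2 start sites, at chr1:22024941-22025240 and chr1:22025254-22025553 on the plus strand. LINC00472 is at chr6:71420696-71420995 on the minus strand, and LINC02249 at chr15:30195786-30196085 on the plus strand.
LINC00339 start site 1: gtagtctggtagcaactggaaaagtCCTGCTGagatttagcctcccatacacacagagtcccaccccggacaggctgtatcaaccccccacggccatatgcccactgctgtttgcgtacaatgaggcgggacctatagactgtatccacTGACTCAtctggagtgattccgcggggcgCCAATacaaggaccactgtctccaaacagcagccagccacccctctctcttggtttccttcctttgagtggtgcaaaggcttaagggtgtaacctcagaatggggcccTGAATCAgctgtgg
LINC00339 start site 2: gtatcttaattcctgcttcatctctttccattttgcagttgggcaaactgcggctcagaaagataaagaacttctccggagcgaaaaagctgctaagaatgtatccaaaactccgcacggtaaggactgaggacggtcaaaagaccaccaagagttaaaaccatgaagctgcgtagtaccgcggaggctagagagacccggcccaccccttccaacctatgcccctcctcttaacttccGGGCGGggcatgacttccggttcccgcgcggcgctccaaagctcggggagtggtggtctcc
LINC00472: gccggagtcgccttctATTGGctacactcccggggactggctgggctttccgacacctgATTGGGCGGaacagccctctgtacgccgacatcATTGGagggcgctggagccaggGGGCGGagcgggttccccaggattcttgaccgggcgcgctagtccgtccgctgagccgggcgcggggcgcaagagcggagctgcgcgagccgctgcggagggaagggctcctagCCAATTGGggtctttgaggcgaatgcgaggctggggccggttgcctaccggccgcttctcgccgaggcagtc
LINC02249: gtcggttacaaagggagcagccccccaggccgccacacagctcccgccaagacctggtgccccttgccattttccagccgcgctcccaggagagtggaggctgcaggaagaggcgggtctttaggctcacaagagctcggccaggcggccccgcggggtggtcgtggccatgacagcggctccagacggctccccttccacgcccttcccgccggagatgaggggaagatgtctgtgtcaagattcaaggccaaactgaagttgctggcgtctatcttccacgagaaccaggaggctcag

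The first LINC00339 window held 2 AP-1 matches (7.71% of all 35116 promoters in the table hold at least 1), 1 ZIC-type match (10.5%) and 1 CCAAT match (34.6%). The second held 1 GC box (45.0%). LINC00472 held 2 GC boxes and 5 CCAAT matches, with 1 overlap between a GC box and a CCAAT match, and LINC02249 held none of these letters. Also searched, with no match in these windows, were the ATF4 composite element TGATGNAA, the cAMP element TGACGTCA, the E-boxes CACGTG and CATGTG, the E2F sites TTTCCCGC and TTTGGCGC, and the TATA box TATAAA, which 3.62%, 1.85%, 7.26%, 11.1%, 1.63%, 0.652% and 11.5% of all promoters hold. A match is a description of the letters only.

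LINC02249 was the only member past 2-fold in opposite directions. In A375 it read 53.0 (control) and 11.5 (ZIC5 siRNA), whereas in SK-MEL-28 it read 57.1 and 122. The control arrays were close to each other, and the ZIC5 siRNA arrays lay on either side of them. The differences were -2.20 and 1.09, and with the floor -0.73 and 1.09.

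Short of 2-fold in SK-MEL-28, LINC00294 read 367 and 151 for A375 and 156 and 79.5 for SK-MEL-28, a difference of -1.28 and -0.97 (limma mean -1.13 ± 0.19, SE, adjusted p = 0.270). Every value was above 32. LINC01003 read 260 and 93.9, and 83.9 and 54.1, through a probe set ending in _s_at. LINC00857, reported in lung cancer, read 89.5 and 45.9, and 31.4 and 18.5. These 3 genes were lower with ZIC5 siRNA in both lines, with the smaller difference in SK-MEL-28. For LINC00857 the differences were -0.96 and -0.77, short of 2-fold in both lines. Both its SK-MEL-28 arrays were under 32, so its difference there has no reliable size.

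Of the other A375 differences to lower values, LINC01419 read 2619 and 905 (-1.53), while in SK-MEL-28 it was at 4.64 and 4.15. LINC01224 (-1.41), LINC00312 (-1.17) and LINC02915 (-1.04) were likewise among the A375-high genes described above. LINC00479 read 44.4 and 18.4 (-1.27, and -0.47 with the floor), and LINC00648 read 79.9 and 38.5. For LINC00698 (-1.45) and LINC02606 (-1.03), both A375 arrays were under 32 and the difference with the floor was 0.

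LINC00520 had the largest A375 difference to higher values of any member, from 29.5 to 159 (2.43, or 5.39-fold, and 4.97-fold with the floor). It was the member that SK-MEL-28 expressed at 4472, and there it differed by -0.47. Among the others higher in A375, LINC01881 read 62.9 and 164 and LINC01711 read 154 and 389. LINC02241 read 58.3 and 142. LINC02591 read 68.1 and 167, and in SK-MEL-28 39.2 and 56.3 (0.52). LINC00973 read 253 and 537 and the pseudogene transcript under LINC01296 129 and 262. None of these was 2-fold higher in SK-MEL-28.

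LINC00662, reported in several carcinomas, read 158 and 341 for A375 and 100.3 and 129 for SK-MEL-28. Its 5 probe sets at the minimum did not agree in sign. The chosen one differed by 1.11 in A375 and 3 others by 0.95 to 2.41, while the fifth differed by -1.14. Of the 31 members with several probe sets at the minimum, all signs agreed in 16 in A375 and in 18 in SK-MEL-28. On the log2 scale, the median SD between a gene's probe sets was 0.21 (A375) and 0.16 (SK-MEL-28) for these members.

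In SK-MEL-28 alone, LINC01293 had the largest difference to lower values, from 71.6 to 24.4 (-1.55, and -1.16 with the floor), while A375 read 98.5 and 99.1. The largest differences to higher values after LINC02249 were 0.61 for LINC01107 and 0.57 for LINC03011.

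**Figure D4:**
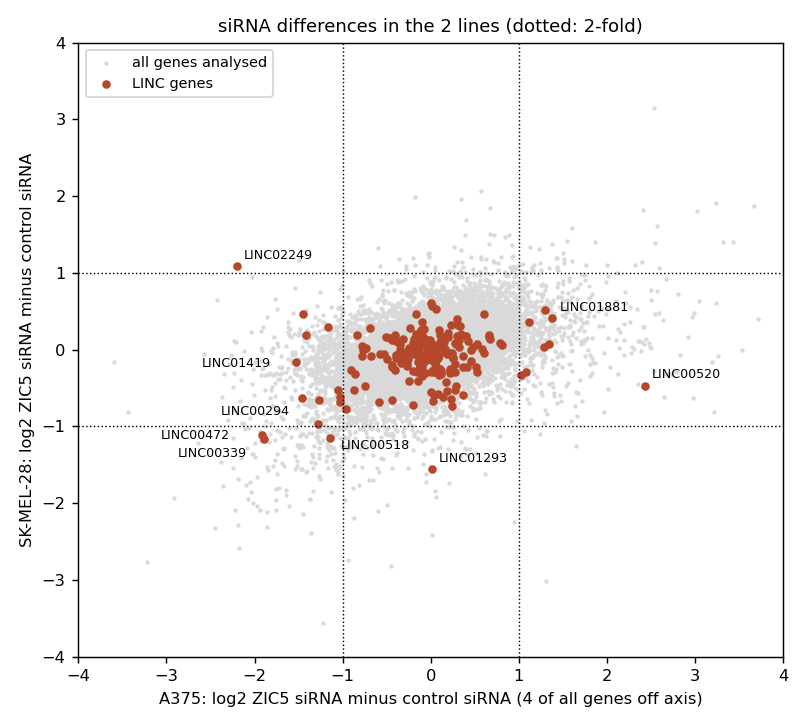
Log2 difference, ZIC5 siRNA minus control siRNA, in A375 (x axis) and SK-MEL-28 (y axis) for the 221 LINC genes (red) over all genes analysed (grey, 4 of them off the axes). Dotted lines mark 2-fold, with LINC00339, LINC00472 and LINC00518 at the lower left, LINC02249 at the upper left and LINC00520 at the right.

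**Figure D5:**
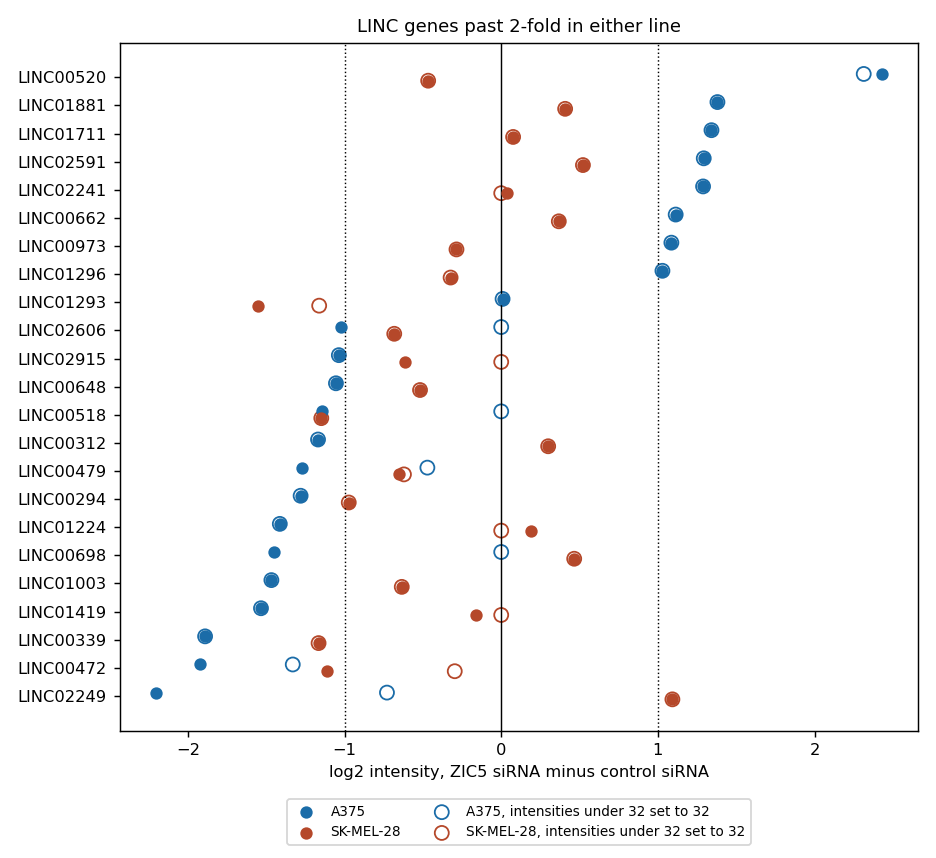
Log2 difference, ZIC5 siRNA minus control siRNA (x axis), for each LINC gene past 2-fold in either line, in A375 (blue) and SK-MEL-28 (red), one array per group. Open rings show the difference after intensities under 32 were set to 32, which brings LINC00698, LINC00518 and LINC02606 to 0 in A375.

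Several of the members with the highest mean levels were under 2-fold with ZIC5 siRNA in both lines. LINC00957 read 278 and 259 for A375 and 289 and 248 for SK-MEL-28. LINC02381 read 621 and 737, and 336 and 325, and LINC01116, reported in several tumours, 289 and 289, and 616 and 419. LINC00326 was lower with ZIC5 siRNA in both lines, at 621 and 411 and at 341 and 213 (-0.59 and -0.68). LINC00623, LINC00621 and LINC01000 were read through probe sets ending in _x_at, and LINC00623 was at 999 and 1579 for A375 and 1013 and 1138 for SK-MEL-28.

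The share of members past 2-fold in A375 with ZIC5 siRNA was higher at higher levels. From mean log2 5 to 6 it was 9 of 135 members (6.67%, beside 6.66% of all genes), from 6 to 7 6 of 53 (11.3%, beside 10.5%) and above 7 7 of 33 (21.2%, beside 9.33%). The last band is small, and the difference from all genes was not tested.

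A list of 31 LINC genes with reported roles in cancer had 23 genes on the array under their LINC symbols and 14 at the minimum. Of these 14, 4 were called higher in A375 than in SK-MEL-28 by limma and 3 lower, beside 14.2% and 13.4% of all genes, and 0 were called for siRNA. With ZIC5 siRNA in A375, 2 were at least 2-fold higher (LINC00520 and LINC00662) and 3 lower (LINC00339, LINC00312 and LINC00518), and in SK-MEL-28 0 and 2. The shares of all genes were 3.89% and 5.05% in A375, then 0.776% and 2.12% in SK-MEL-28, and 14 genes are too few to set against them. LINC00963, reported in prostate cancer, read 91.9 and 79.2 for A375 and 233 and 228 for SK-MEL-28. LINC00473, an RNA induced through cAMP signalling, read 167 and 291 for A375 and 249.9 and 261 for SK-MEL-28. LINC00667 read 196 to 214 on every array through its chosen probe set. Its further probe sets at the minimum were lower with ZIC5 siRNA, by -0.26 and -0.35 in A375 and by -0.93 and -0.73 in SK-MEL-28.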

How the data were processed

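RNA of 4 cultures, 1 per group, was hybridised to arrays. The intensity values that the authors deposited are linear, 1 for each probe set on each array. RMA and Affymetrix Expression Console are the tools listed in the submitters' processing notes, and a version is not given in the sources used here. RMA fits all arrays together, so values share a scale. Low intensity values are also compressed in RMA. Log2 values were computed here from the deposited intensity, and no detection calls were used, so 32 is a chosen level and not a measured background.

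Gene names came from the GEO platform annotation supplied with the data, which can be old. The members and gene lists were chosen with earlier results of these data known. Named genes were the 10 highest and 10 lowest members in each comparison, the 10 with the highest level, those with the lowest limma p, those 2-fold in both lines, the listed genes, and nearest coding genes. Any other gene was chosen after its values were seen.

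Within a line, 2-fold (log2 difference of 1) was a size rule. An additive line and siRNA model was fitted to all 13794 genes with limma 3.58.1 in R 4.3.3 (eBayes with trend, 2.85 prior degrees of freedom, Benjamini-Hochberg at 0.05). Neighbours and promoters came from RefSeq GRCh38.p14. Samples are separate cultures only as far as the labels say. The p-values rest on how far the siRNA differences of the 2 lines disagree, moderated over all genes, and not on replicate cultures.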

Additional observations from a re-analysis of the deposited data

Results flagged for a closer look

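LINC02249 is given for a closer look because its arrays moved in opposite directions in the 2 lines. The log2 difference of ZIC5 siRNA against control siRNA came to -2.20 (A375) and 1.09 (SK-MEL-28), each from 1 array per group. The difference between the lines was not tested. The A375 value rests on an intensity of 11.5, below 32. With the mean of its probe sets the gene fell under the level minimum, so its differences were not recomputed that way.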

How the results depend on the processing

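Each count was recomputed without the level minimum, with a minimum of mean log2 7, with intensities under 32 set to 32, with the mean of a gene's probe sets, with cyclic loess, with arrays centred on their medians and, chosen after seeing the data, without _x_at and _s_at probe sets. The line test was also run without trend. With a minimum of 7, which leaves 33 members, 5 were 2-fold higher and 5 lower in A375 under control siRNA, limma called 9 and 5, 5 were higher and 2 lower under ZIC5 siRNA for A375, and 0 and 1 for SK-MEL-28. After the floor of 32, 9 members in place of 14 were 2-fold lower in A375. Without a minimum, over 840 genes, 3 were higher and 8 lower in SK-MEL-28. With the mean of all probe sets (171 members), 0 were higher in SK-MEL-28. With the ZIC5 siRNA arrays in place of the control arrays, 12 members were 2-fold lower in A375 than in SK-MEL-28, 11 of them shared with the 19, and 19 were higher, 14 shared with the 25. The other counts stayed within 1.5 times, and limma called 0 members for siRNA under every alternative run. Of 286 recomputed values of single genes, 261 stayed within the spread between probe sets, 25 moved and 0 changed sign. The 261 include values that could not change. The floor leaves a gene alone where its values are all above 32, and the mean of probe sets where it has 1. The 261 are therefore no measure of how stable the values are. Some settings left a gene without a value, and such cases are not among the 286. LINC02249, LINC00472 and LINC02591 fell under the minimum with the mean of their probe sets. LINC00520, LINC01881 and LINC01003 had no value without _x_at and _s_at probe sets. No pairing of replicates within a line was possible because the labels carry no replicate numbers and each group has 1 array. The limma siRNA effect did compare the arrays within each line, since line is a term of the model. Values under 32 limit 57 members, 24 with 1 such array and 33 with 2.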

Other observations

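Of a list of 60 long non-coding RNAs with other names, 44 were on the array and 30 at the minimum. Limma called 6 of these 30 higher in A375 and 3 lower (14.2% and 13.4% of all genes), with 0 called for siRNA. With ZIC5 siRNA, 3 were 2-fold higher and 2 lower in A375 (3.89% and 5.05% of all genes), and 0 in either direction in SK-MEL-28. The genes that follow are from this list, and MALAT1, UCA1 and NORAD among them had LINC symbols before. MALAT1, an abundant nuclear RNA, read 1426 (control) and 8026 (ZIC5 siRNA) for A375, then 1418 and 1448 for SK-MEL-28, which are log2 differences of 2.49 and 0.03. UCA1, first described in bladder cancer, read 390 and 118 for A375 and 23.8 and 20.3 for SK-MEL-28. MIR100HG, host of the miR-100 cluster, read 1356 and 1398 against 158 and 152. NORAD, which binds Pumilio proteins, read 3670 to 4772 on every array.

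Some LINC genes below the level minimum had single high arrays. Of the 619, 43 read at least 32 on some array and 4 at least 64. LINC02806 read 22.2 with control and 152 with ZIC5 siRNA in SK-MEL-28, and 10.2 and 16.3 in A375. LINC02941 read 229 and 53.1 in SK-MEL-28 and 7.57 and 6.19 in A375. LINC01537 read 113 and 18.9 in SK-MEL-28 and 24.2 and 4.97 in A375, and LINC00525 read 67.7 and 15.8 in A375 and under 10 in SK-MEL-28. These 4 genes were chosen after their values were seen.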
